A study of Mus musculus with 18 samples.

Results

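Epididymal white fat, a visceral depot of C57BL/6 mice, was sampled at 2 times of day under 2 light schedules, and the question was which of its time-of-day differences in RNA level depend on the schedule. All 12 epididymal libraries of the 18 samples were used, as 4 groups of 3. Shiftwork mice lived for 24 weeks with 4 days of each week on the regular cycle and 3 on a reversed one, and one group was sampled at ZT12 and one at ZT3. Control mice stayed on a constant cycle with 12 h of light in every day and 12 h of darkness, and were likewise sampled at ZT12 and at ZT3. ZT counts hours from lights-on of the regular cycle. The day of the week on which the shiftwork mice were sampled is not given in the sources used here. The quantity of interest is the interaction, the ZT12 minus ZT3 difference under shiftwork minus the same difference in control, on the log2 scale. A positive interaction therefore means a more positive, or less negative, ZT12 minus ZT3 difference under shiftwork. Levels are CPM, read counts scaled to a common library size, and errors are standard errors (SE) of the fit unless named otherwise, with n = 3 libraries per group. The labels do not state that the libraries are from separate animals, so the p-values measure the spread between these samples only.

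Circadian time is kept within cells, fat cells included, by a feedback loop of transcription factors. BMAL1 (gene Arntl) with CLOCK or NPAS2 switches on the Per and Cry repressor genes, the Rev-erb genes Nr1d1 and Nr1d2, and the output factors Dbp, Tef and Hlf through E-box sequences, and the REV-ERB proteins in turn repress Arntl and Nfil3. In mouse tissues on a regular light cycle the Arntl group is therefore high when the Per and Dbp group is low, and the loop drives daily rhythms of many metabolic and immune genes.

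Assigned reads per library ran from 20352008 to 72276733, the deepest being ZT3 control replicate 1 and the next holding 22513786. The floor of 3 reads lay between 0.0415 and 0.147 CPM, for counting error only. All 9 adipocyte markers, Adipoq and Plin1 among them, lay above 1 CPM in every library, with summed levels of 20500 to 23500 CPM (ZT12) and 11300 to 26900 CPM (ZT3) under shiftwork and 21400 to 27500 CPM (ZT12) and 15300 to 22400 CPM (ZT3) in control. Several ZT3 libraries stood apart. The 10 vas deferens markers summed to 3.79 to 9.92 CPM (ZT12) and 2.32 to 6.55 CPM (ZT3) under shiftwork and 3.43 to 4.58 CPM at ZT12 in control, against 14300, 15.8 and 14300 CPM in the ZT3 control replicates 1, 2 and 3. Smooth muscle markers in those 3 libraries summed to 15900, 709 and 10700 CPM, against 591 to 1480 CPM in the other 9 libraries. The 13 spermatid markers summed to 8260 CPM in ZT3 shiftwork replicate 3, against 51.7 to 152 CPM in the other 11, and the adipocyte sum was lowest there. No marker of these 3 lists was at 0 in all libraries. Intestinal markers reached 678 CPM in ZT12 shiftwork replicate 2, against 8.49 to 41.6 CPM elsewhere. Because a group of 3 rests heavily on each library, results are also given without ZT3 shiftwork replicate 3 and ZT3 control replicates 1 and 3, called the 9-library fit below. That fit keeps 1 ZT3 control library, replicate 2, whose unseen spread is taken to equal that of the remaining groups. Replicate 2 itself had the lowest sample quality weight of its group in voom, 0.284 against 0.524 and 1.72 for replicates 1 and 3. The 9-library fit is therefore not a fit on a typical ZT3 control group. In whole tissue, fewer cells of a type and less RNA per cell cannot be told apart.

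**Figure D1:**
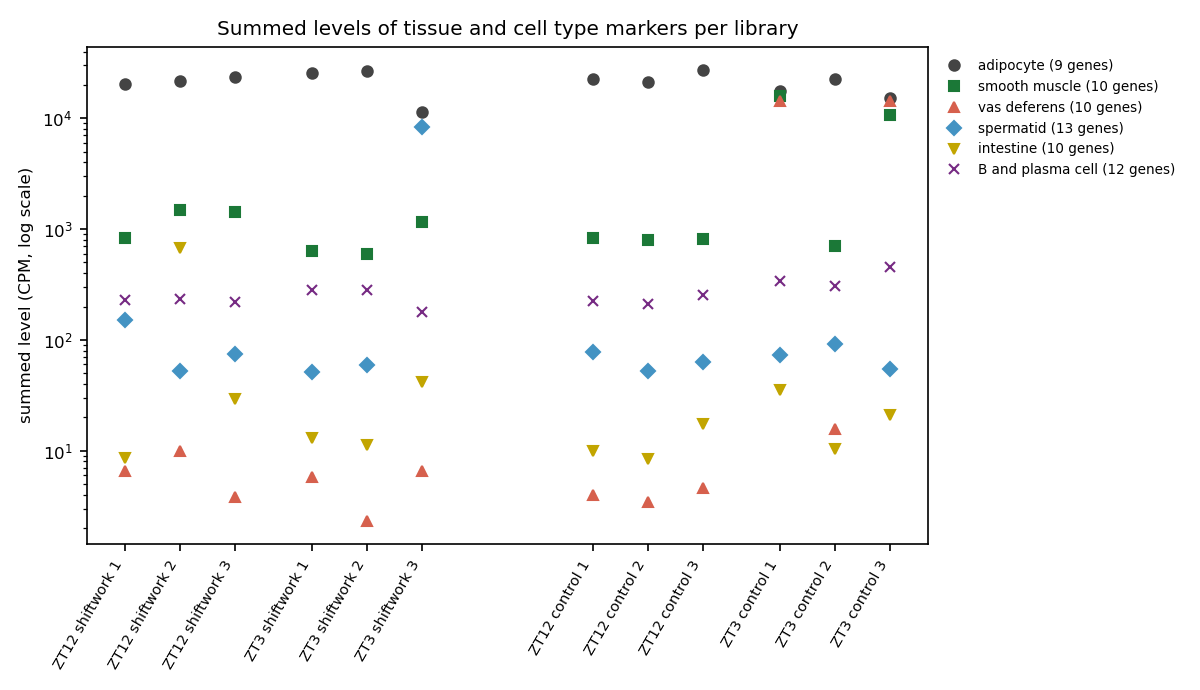
Summed marker levels (CPM, log scale) in each of the 12 libraries, shiftwork to the left of control and ZT12 to the left of ZT3, one symbol per marker list. Vas deferens and smooth muscle sums are 10700 CPM or more in ZT3 control replicates 1 and 3, and the spermatid sum is 8260 CPM in ZT3 shiftwork replicate 3.

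In control fat 559 of 15141 tested genes (3.69%) differed between the times at a Benjamini-Hochberg adjusted p under 0.05 in edgeR's quasi-likelihood test. Of these, 443 (2.93%) were higher and 116 (0.766%) lower at ZT12. Under shiftwork 0 genes (0%) passed the same test, with 2461 (16.3%) at an unadjusted p under 0.05, 287 (2.11% of those tested) by DESeq2, 285 (1.88%) by voom with sample quality weights and 0 by limma-trend on log2 FPKM. The interaction itself, which is the test of a difference between schedules, was passed by 0 genes (0%) in edgeR. It had 1535 genes (10.1%) at an unadjusted p under 0.05, 658 positive (4.35%) and 877 negative (5.79%), against 3393 (22.4%) for time in control. Other tools called 189 interactions (DESeq2, 1.36%), 2014 (voom with quality weights, 13.3%) and 0 (limma-trend). Of the 189, 67 exceeded the level of ZT3 control replicate 2 at least 2-fold in both replicates 1 and 3, a pattern shared by 1423 of all tested genes (9.4%). The 9-library fit called 7 interactions (0.0452% of 15474 genes), which are Dbp, Per3, Tef, Angptl2, Tspan4, Egr1 and Arc. These 7 are described with their groups. In the same fit 619 genes (4%) were called for time in control and 1791 (11.6%) for the mean of both schedules. The same counts were 2168 (15.3%) and 2252 (15.9%) in DESeq2, and 5085 (33.6%) and 3599 (23.8%) in voom.

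The number of genes called in control depended strongly on single libraries. It was 396, 144 and 155 without ZT12 shiftwork replicate 1, 2 or 3, and 276, 423 and 2744 without ZT3 shiftwork replicate 1, 2 or 3. It was 1, 4 and 121 without ZT12 control replicate 1, 2 or 3, and 173, 1208 and 3 without ZT3 control replicate 1, 2 or 3. The interaction count was 186 (1.19%) without ZT3 control replicate 2, 15 (0.0975%) without ZT3 shiftwork replicate 3, 1 (Egr1, 0.00645%) without ZT3 control replicate 1, and 0 without any of the other 9 libraries. Of the 186, 140 had the 2-fold pattern of ZT3 control replicates 1 and 3, and of the 15, 0 did, against 9.4% of all tested genes. Without replicate 2 the ZT3 control group is replicates 1 and 3 alone, which favours genes high in both. The 15 genes are too few to set 0 against that share.

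Every gene called for time in control was placed in a size class. A difference was counted as kept when the shiftwork difference had the same direction and at least 0.5 of the control size, as lost when it was smaller than that in either direction, and as reversed when it was opposite with at least 0.5 of the size. By this description 206 of the 559 genes (36.9%) were kept, 345 (61.7%) lost and 8 (1.43%) reversed. These classes are not tests, and genes chosen for a large control difference tend to be smaller under shiftwork through that choice. Genes higher at ZT12 were kept in 186 of 443 cases, with median differences of 0.45 under shiftwork and 1.06 in control. Those lower at ZT12 were kept in 20 of 116 cases, with medians of -0.05 under shiftwork and -1.76 in control. Genes higher at ZT12 in control in the 9-library fit were kept in 81 of 268 cases, with medians of 0.32 under shiftwork and 1.0 in control. Those lower in control in that fit were kept in 105 of 351 cases (29.9%, against 17.2% with all 12 libraries), with medians of -0.26 under shiftwork and -0.84 in control. In 205 of the 206 kept genes the shiftwork libraries at ZT12 and ZT3 did not overlap, in the control direction. The kept class selects on these same shiftwork values, so this count is not separate evidence. Over all tested genes 9.05% were higher and 7.59% lower at ZT12 without overlap under shiftwork. Of the lost genes, 47 of 345 had the 2-fold pattern of ZT3 control replicates 1 and 3, and of the kept genes 0 of 206. By size ratio alone, 181 of the 206 kept genes and 265 of the 345 lost genes met the same class limits in the 9-library fit. A call for time in control was not required there, so these are not counts of repeated calls.

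Genes were also chosen by the mean of both schedules, which does not select on either schedule alone. The mean of the 2 time differences was called for 748 genes (4.94%), 619 (4.09%) higher and 129 (0.852%) lower at ZT12. That number was 335, 255 and 317 without ZT12 shiftwork replicate 1, 2 or 3, 494, 391 and 1656 without ZT3 shiftwork replicate 1, 2 or 3, 138, 268 and 516 without ZT12 control replicate 1, 2 or 3, and 370, 1187 and 187 without ZT3 control replicate 1, 2 or 3. With all 12 libraries the shiftwork difference was the smaller one in 640 of the 748 (85.6%), against 55.5% of all tested genes. For those higher at ZT12 the median was 0.60 under shiftwork and 1.02 in control, and for those lower at ZT12 it was -0.46 under shiftwork and -0.59 in control. The share was 76.3% in the 9-library fit (57.9% of all genes there), and 67 to 92.8% when single libraries were left out. Across all tested genes the sign of the 2 differences matched in 63.4%, and their Spearman rho across genes was 0.342 (0.2 in the 9-library fit), given as a description since genes are not independent replicates.

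**Figure D2:**
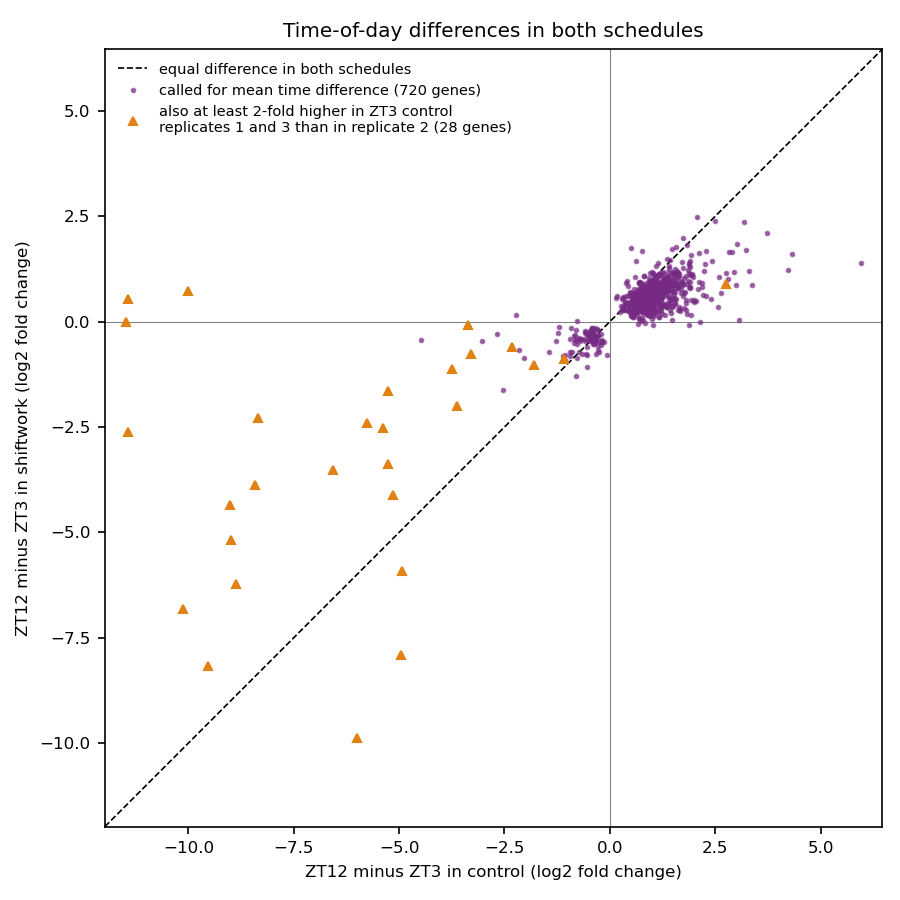
ZT12 minus ZT3 difference under shiftwork (vertical axis) against the same difference in control (horizontal axis), both log2 fold changes, for the 748 genes called for the mean of the 2 differences. Most round points lie between the dashed line of equal differences and the horizontal zero line, and the 28 triangles mark genes at least 2-fold higher in ZT3 control replicates 1 and 3 than in replicate 2.

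The time-of-day difference was smaller under shiftwork than in control in 3 of 5 positive-arm and 10 of 14 repressor and output genes of the clock, against 55.5% of all genes. Among those with the larger difference under shiftwork were Cry1, Hlf, Ciart, Nfil3 and Usp2, and 0 of 19 passed the edgeR interaction test with all 12 libraries. The positive arm and the genes that peak with it (Arntl, Clock, Npas2, Nfil3 and Cry1) had a median difference of -0.30 under shiftwork and -1.06 in control, and 4 of 5 interactions were positive. The repressors and output factors (14 genes) had medians of -0.18 under shiftwork and 0.55 in control, with 12 of 14 interactions negative. Unadjusted p was under 0.05 for 3 of the 5 and for 4 of the 14. Median interactions were 2.21 for the positive arm and -0.94 for the repressors and outputs, and -0.07 over all tested genes. In the 9-library fit these medians were 2.46 and -1.20.

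Arntl (chr7:113207465-113314126, plus strand in the deposited table) encodes BMAL1. Under shiftwork it had 9.15, 6.99 and 8.80 CPM at ZT12 and 4.84, 15.99 and 9.89 CPM at ZT3. Control fat had 4.89, 5.58 and 4.56 CPM at ZT12 and 23.3, 52.4 and 20.3 CPM at ZT3. The control libraries did not overlap, with ZT3 high, and the shiftwork libraries did, all of them below the ZT3 control range. The difference was -0.30 ± 0.44 under shiftwork and -2.67 ± 0.46 in control, where Arntl fell at ZT12 (edgeR adjusted p = 0.0213). The interaction was 2.37 ± 0.62, with an edgeR adjusted p of 0.419 and a DESeq2 adjusted p of 0.0284, and 3.08 ± 0.64 in the 9-library fit (adjusted p = 0.138). The control difference is counted as lost.

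Clock, the partner of BMAL1, was also lower at ZT12 in control (adjusted p = 0.0414). Its levels were 121, 122 and 118 CPM at ZT12 and 136, 150.1 and 97.0 CPM at ZT3 under shiftwork. In control they were 111, 122 and 97.2 CPM at ZT12 and 154, 220.3 and 206 CPM at ZT3, without overlap. The interaction was 0.73 ± 0.25 (adjusted p = 0.474), and the class was lost. Npas2, which can stand in for Clock, ran at 0.380, 0.331 and 0.326 CPM at ZT12 and 2.96, 10.03 and 3.32 CPM at ZT3 in control, and its shiftwork libraries overlapped, spanning 0.237 to 4.55 CPM. Nfil3, a REV-ERB target that represses D-box genes, had 19.4, 18.7 and 11.7 CPM at ZT12 and 4.70, 12.5 and 5.34 CPM at ZT3 under shiftwork. The control values were 17.5, 20.4 and 13.96 CPM at ZT12 and 11.5, 48.4 and 48.6 CPM at ZT3, with overlap in both schedules and an interaction of 2.21 ± 0.75 (adjusted p = 0.466).

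Per2 (chr1:91415982-91459328, minus strand), a repressor of the loop, was the 1 gene of the repressor and output list called in control. It had 49.6, 79.3 and 41.1 CPM at ZT12 and 59.1, 42.1 and 45.3 CPM at ZT3 under shiftwork. Control levels were 81.8, 79.0 and 99.2 CPM at ZT12 and 24.1, 25.8 and 45.2 CPM at ZT3. Only the control libraries were separated, with ZT12 high. The difference was 0.21 ± 0.29 under shiftwork and 1.45 ± 0.30 in control (adjusted p = 0.0329), with an interaction of -1.24 ± 0.41 (adjusted p = 0.459), and it is counted as lost.

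Dbp, Tef and Per3 were the clock genes whose interaction was called in the 9-library fit. Dbp (chr7:45705247-45710203, plus strand), a D-box activator that is a direct output of the loop, had 65.0, 68.8 and 66.6 CPM at ZT12 and 97.0, 79.3 and 51.2 CPM at ZT3 under shiftwork. Control libraries had 78.3, 71.0 and 76.0 CPM at ZT12 and 63.4, 10.6 and 31.4 CPM at ZT3. ZT3 control replicate 2 was the lowest of all 12 libraries, and the ZT3 control libraries were all below the ZT12 control ones. The interaction of Dbp was -1.27 ± 0.68 with 12 libraries (adjusted p = 0.52) and -3.21 ± 0.18 with 9 (adjusted p = 0.001). Tef (chr15:81802673-81826863, plus strand), another D-box activator, had 189, 241 and 222 CPM at ZT12 and 279.8, 249 and 166 CPM at ZT3 under shiftwork. Control fat had 238, 218 and 264 CPM at ZT12 and 157, 71.1 and 124 CPM at ZT3, without overlap. Its interaction was -1.13 ± 0.39 with 12 libraries (adjusted p = 0.47) and -2.02 ± 0.22 with 9 (adjusted p = 0.0313). Per3 (chr4:151003655-151044665, minus strand), a Period family member, had 88.9, 106 and 101 CPM at ZT12 and 138, 108 and 62.8 CPM at ZT3 under shiftwork. Control levels were 102, 95.5 and 127 CPM at ZT12 and 70.3, 18.3 and 37.4 CPM at ZT3. For Per3 the interaction was -1.42 ± 0.59 with 12 libraries (adjusted p = 0.484) and -2.86 ± 0.27 with 9 (adjusted p = 0.0247). In all 3 genes the 9-library call sets the other libraries against 1 ZT3 control library, the lowest of its group. Dbp and Per3, like Nr1d2, Hlf and Ciart, were at least 2-fold higher in ZT3 control replicates 1 and 3 than in replicate 2, the libraries with high and low vas deferens sums. The part of those sums in these values was not tested.

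Nr1d2 (chr14:18204056-18239106, minus strand), which encodes REV-ERB beta, was the clock gene with opposite differences and no overlap in either schedule. It had 66.1, 81.7 and 86.7 CPM at ZT12 and 146, 104 and 92.4 CPM at ZT3 under shiftwork, lower at ZT12. Control libraries had 90.4, 104 and 89.0 CPM at ZT12 and 84.3, 34.9 and 70.8 CPM at ZT3, higher at ZT12. Its interaction was -1.12 ± 0.41 (adjusted p = 0.478). Nr1d1, which encodes REV-ERB alpha, went another way. It had 78.6, 91.9 and 168 CPM at ZT12 and 218, 265 and 114 CPM at ZT3 under shiftwork and 84.3, 84.5 and 80.7 CPM at ZT12 and 201, 138 and 203 CPM at ZT3 in control. Both differences were negative (-0.82 ± 0.34 and -1.12 ± 0.34), and Nr1d1 fell at ZT12 in the test of their mean (-0.97, adjusted p = 0.0499). The interaction of Nr1d1 was 0.30 ± 0.48, and its sign was opposite in the 9-library fit.

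The remaining clock genes varied less clearly. Per1 had an interaction of -0.75 ± 0.39, Cry2 of -0.38 ± 0.31 and Cry1 of -0.46 ± 0.47, none past the test, and that of Cry1 was positive in the 9-library fit. Hlf, a D-box activator, was lower at ZT12 without overlap under shiftwork (22.6, 26.5 and 24.7 CPM at ZT12 and 41.2, 29.2 and 33.0 CPM at ZT3) and overlapped in control. Ciart, which encodes a repressor of CLOCK and BMAL1, had an interaction of -1.20 ± 0.76. Bhlhe40 and Bhlhe41, E-box repressors, had interactions of 0.90 ± 0.66 and -0.30 ± 0.38. Usp2, a deubiquitinase with a daily rhythm in many mouse tissues, reached 243 CPM in ZT3 shiftwork replicate 3 and 16.9 to 34.7 CPM in all others. Its interaction was -2.40 ± 1.17 with 12 libraries and 0.10 without the 3.

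Each library was also given a clock score. The 14 repressors and outputs were averaged as log2(CPM + 1) and subtracted from the average of the 5 positive-arm genes. The score placed the ZT3 control libraries apart from all others. It was -1.61, -1.74 and -1.97 at ZT12 and -2.52, -1.75 and -1.85 at ZT3 under shiftwork. In control it was -2.04, -1.97 and -2.13 at ZT12 and -1.21, 0.719 and -0.608 at ZT3. The ZT12 minus ZT3 difference was 0.265 under shiftwork and -1.68 in control (SE 0.445 each), a gap of 1.95 ± 0.63, given without a test because the genes were chosen with results known.

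**Figure D3:**
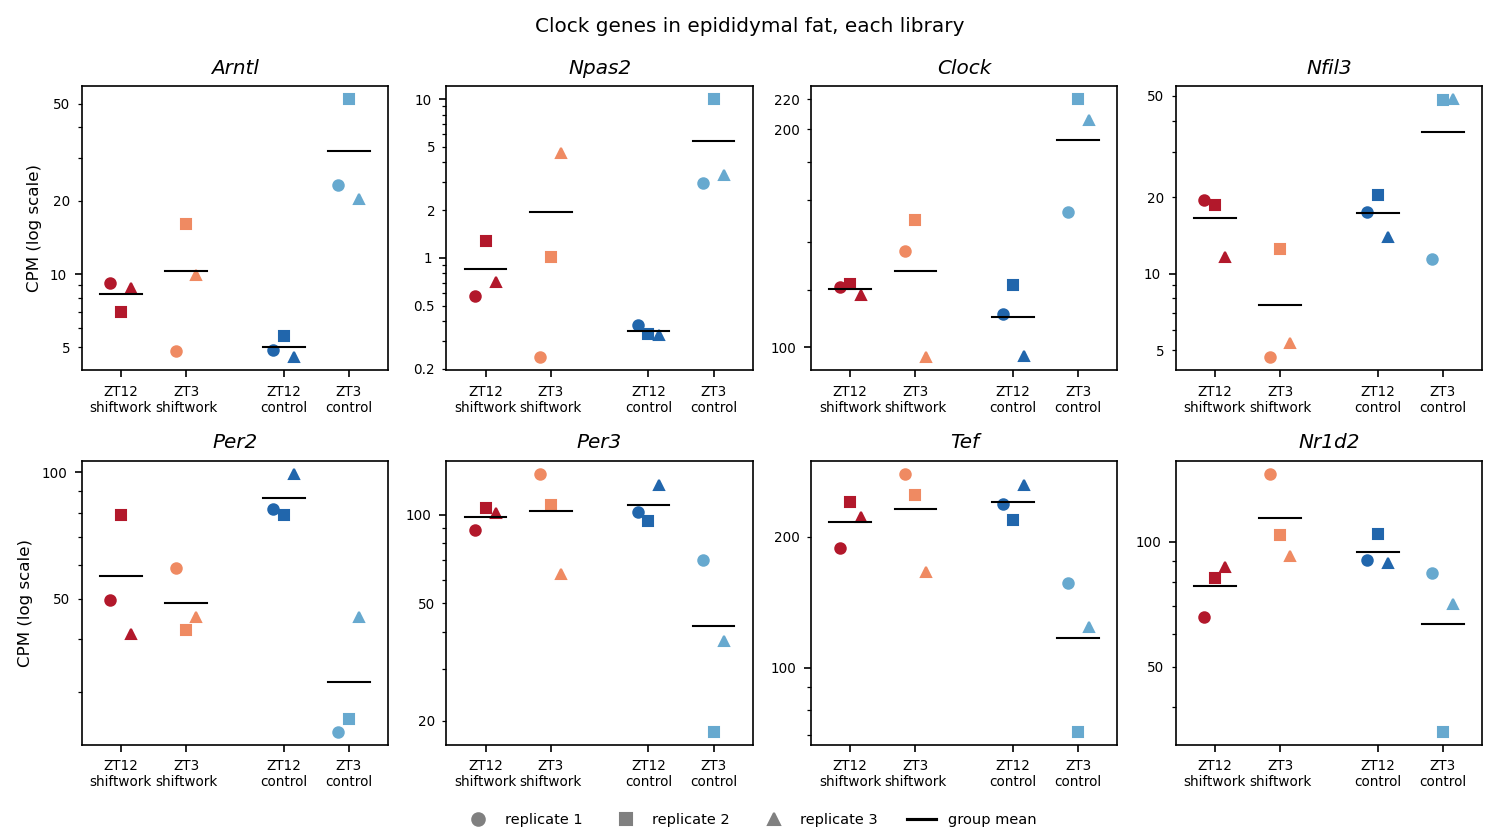
Levels of 8 clock genes (CPM, log scale) in each library, shiftwork to the left of control and ZT12 to the left of ZT3, symbols marking replicates and lines the group means. Arntl, Clock and Npas2 stand high, and Tef and Per3 low, in the ZT3 control libraries, while most shiftwork libraries of both times overlap.

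Stretches of the start regions of 3 of these genes show the clock motifs that their textbook regulation refers to, with the motif in capitals. They are RefSeq sequences of build GRCm38.p6, each on its gene's strand, cut from windows of 250 bases before to 50 bases after the start. The Arntl stretch (chr7:113207518-113207547, plus strand) ends in the REV-ERB element TAGGTCA, which begins 31 bases into the transcript. The Per3 stretch (chr4:151044766-151044915, minus strand) holds 2 D-boxes (TTATGNAA), at -205 and -158 from the start. The Tef stretch (chr15:81802473-81802622, plus strand) holds the E-box CACGTG at -127.
Arntl: cgacatttagggaaggcagaaagTAGGTCA
Per3: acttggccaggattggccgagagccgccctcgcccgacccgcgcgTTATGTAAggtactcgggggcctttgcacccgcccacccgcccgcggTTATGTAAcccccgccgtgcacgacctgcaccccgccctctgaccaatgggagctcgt
Tef: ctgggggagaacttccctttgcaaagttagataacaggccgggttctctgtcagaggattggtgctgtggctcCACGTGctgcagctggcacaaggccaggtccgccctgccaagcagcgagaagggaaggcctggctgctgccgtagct
Windows were available for 16 of the 19 clock genes. On either strand, CACGTG occurred in 5 of the 16 (Cry1, Per1, Tef, Ciart and Bhlhe41), TTATGNAA in 2 (Per1 and Per3) and TAGGTCA in 2 (Arntl and Nfil3). Among all 32851 windows these motifs occurred in 7.15%, 3.38% and 2.61%. None of the printed matches overlaps another searched motif, and a match is a description of letters only.

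Interferon response genes were higher at ZT12 in control, and under shiftwork the difference was smaller in 23 of 24 genes. Under shiftwork 21 of 24 differences were positive (16 of 24 in the 9-library fit) and 0 were called, against 24 of 24 positive in control in both fits. Of the 24, 11 rose at ZT12 in control (2.93% of all genes did), of which 2 were kept and 9 lost under shiftwork, and 22 were higher at ZT12 without overlap in control against 4 under shiftwork. For comparison, 19.3% of all genes were higher without overlap in control and 9.05% under shiftwork. The median difference was 0.22 under shiftwork and 0.93 in control, and 23 of 24 interactions were negative, 10 of them at an unadjusted p under 0.05 (5.79% of all genes). Among all tested genes 42.9% of interactions were positive. The median interaction was -0.74, and -0.82 in the 9-library fit, where the median difference was 0.15 under shiftwork and 1.07 in control. Summed levels were 812, 721 and 682 CPM at ZT12 and 627, 613 and 583 CPM at ZT3 under shiftwork. In control they were 925, 1070 and 780 CPM at ZT12 and 615, 464 and 482 CPM at ZT3.

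Irf7 (chr7:141263183-141266424, minus strand), the transcription factor that amplifies type I interferon responses, had 24.99, 20.6 and 20.2 CPM at ZT12 and 23.5, 19.4 and 21.01 CPM at ZT3 under shiftwork. Control fat had 22.8, 28.9 and 26.8 CPM at ZT12 and 17.1, 13.6 and 14.6 CPM at ZT3. The ZT3 control libraries were the lowest and did not overlap any other group. The difference was 0.04 ± 0.14 under shiftwork and 0.79 ± 0.14 in control (adjusted p = 0.024), with an interaction of -0.75 ± 0.20 (adjusted p = 0.419). Ifit2, an interferon-induced antiviral protein, had 22.7, 22.8 and 22.04 CPM at ZT12 and 27.5, 19.1 and 19.4 CPM at ZT3 under shiftwork. Control levels were 34.9, 33.9 and 26.7 CPM at ZT12 and 19.6, 14.1 and 13.6 CPM at ZT3. Its interaction was -0.97 ± 0.27 (adjusted p = 0.419), and like Irf7 it is counted as lost. Zbp1, a sensor of unusual nucleic acids, was kept instead. It had 18.0, 12.2 and 12.1 CPM at ZT12 and 6.89, 5.98 and 8.93 CPM at ZT3 under shiftwork and 17.9, 26.1 and 13.6 CPM at ZT12 and 4.54, 5.70 and 5.76 CPM at ZT3 in control, higher at ZT12 without overlap in both. Oas1a, which makes the activator of RNase L, was the other kept member, with differences of 0.96 ± 0.32 under shiftwork and 1.68 ± 0.33 in control. Isg15 was the 1 member with a positive interaction (0.06 ± 0.43).

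Ifit3 is shown as an example of an interferon promoter, chosen after its values were seen. It had 28.9, 19.6 and 18.2 CPM at ZT12 and 22.4, 25.4 and 12.3 CPM at ZT3 under shiftwork. Control libraries had 33.8, 38.8 and 28.4 CPM at ZT12 and 15.2, 12.4 and 9.77 CPM at ZT3, with a difference of 1.43 ± 0.29 (adjusted p = 0.0329) and an interaction of -1.28 ± 0.41 (adjusted p = 0.448). Its stretch (chr19:34583329-34583478, plus strand, RefSeq, GRCm38.p6) holds the interferon-stimulated response element (GAAA, any 2 bases, GAAA) in 2 places, read on the other strand, at -156 and -122 (capitals).
Ifit3: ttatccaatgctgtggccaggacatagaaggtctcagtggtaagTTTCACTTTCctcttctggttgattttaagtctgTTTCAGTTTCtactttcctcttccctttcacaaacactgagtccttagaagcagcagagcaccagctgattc
This motif occurred on either strand in 10 of the 15 interferon genes that had a window, and in 3.44% of all windows.

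MHC class II presentation genes, expressed by macrophages, dendritic cells and B cells, followed a like pattern. All 7 had a negative interaction (median -0.72, and -0.44 in the 9-library fit), 6 rose at ZT12 in control (1 kept and 5 lost; 2.93% of all genes rose), and the median difference was 0.43 under shiftwork and 1.23 in control. In the 9-library fit these medians were 0.70 under shiftwork and 1.21 in control. H2-Aa had 428, 389 and 516 CPM at ZT12 and 298, 256 and 460.0 CPM at ZT3 under shiftwork. Control fat had 576, 531 and 525 CPM at ZT12 and 221, 228 and 233 CPM at ZT3, with the ZT3 libraries all low and close together. ZT3 shiftwork replicate 3 was the one ZT3 shiftwork library within the ZT12 range, and without the 3 libraries the interaction of H2-Aa was -0.55 ± 0.21, against -0.87 ± 0.29 with all 12 (adjusted p = 0.311 and 0.458). H2-Ab1, the partner chain, had an interaction of -0.80 ± 0.28. H2-DMb1, which helps load peptides, was kept, with differences of 0.86 ± 0.29 under shiftwork and 1.54 ± 0.30 in control. The mean of both differences was called, and positive, for all 7 genes, against 4.09% of all genes.

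Macrophage genes were higher at ZT12 in both schedules. Of 21 markers, 14 rose at ZT12 in the test of the mean difference with all 12 libraries, against 4.09% of all genes. In the 9-library fit 4 of 21 were called for the mean, against 11.6% of all genes. With all 12 libraries 13 were separated without overlap in the same direction in both schedules, against 6.51% of all genes. The median difference was 0.95 under shiftwork and 1.26 in control, and the median interaction was -0.28 (-0.10 in the 9-library fit), with 0 at an unadjusted p under 0.05 in edgeR, 0 called by edgeR and 0 by DESeq2. Csf1r, the receptor for the macrophage growth factor, had 424, 275 and 265 CPM at ZT12 and 233, 129 and 172 CPM at ZT3 under shiftwork. Control levels were 335, 363 and 225 CPM at ZT12 and 129.5, 136 and 114 CPM at ZT3. Its differences were 0.85 ± 0.27 under shiftwork and 1.28 ± 0.27 in control, kept, with an interaction of -0.43 ± 0.37. Cd14, a co-receptor for bacterial lipopolysaccharide, and Ms4a7 were kept as well. Summed macrophage markers were 4530, 2500 and 2180 CPM at ZT12 and 1800, 1110 and 1690 CPM at ZT3 under shiftwork, against 2850, 3520 and 1990 CPM at ZT12 and 1310, 1300 and 1210 CPM at ZT3 in control.

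Lysosome genes were also mostly higher at ZT12 in both schedules. Of 19, 8 rose at ZT12 in the test of the mean (4.09% of all genes did) and 13 were separated the same way in both schedules (6.51% of all genes). Of the 5 called in control (2.93% of all genes were called higher) 4 were kept (Ctsk, Hexa, Tfeb and Lipa), and Ctsz was lost. The median difference was 0.47 under shiftwork and 0.79 in control with all 12 libraries, and 0.30 and 0.41 in the 9-library fit. Lipa, the lysosomal acid lipase, had 208, 174 and 161 CPM at ZT12 and 118, 94.3 and 109.9 CPM at ZT3 under shiftwork and 199, 319 and 142 CPM at ZT12 and 78.3, 113 and 67.5 CPM at ZT3 in control. Clec12a, a myeloid inhibitory receptor, was among the kept genes with the largest control difference. It had 47.8, 33.8 and 33.1 CPM at ZT12 and 16.4, 12.7 and 20.5 CPM at ZT3 under shiftwork. Control libraries had 39.7, 68.9 and 29.9 CPM at ZT12 and 11.5, 10.9 and 7.03 CPM at ZT3, with differences of 1.21 ± 0.33 under shiftwork and 2.23 ± 0.34 in control. Myo1f, a myosin of leukocytes, and Dpep2, a membrane dipeptidase, were also among these, with control differences of 1.94 ± 0.34 and 1.89 ± 0.39. Mrc2, a collagen uptake receptor, and Kcnj14, a potassium channel gene, were kept with control differences of 2.25 ± 0.50 and 2.42 ± 0.54. With single libraries left out their interactions ran from -1.37 to -0.21 and from -1.83 to -0.52. In the 9-library fit they were 0.47 for Mrc2 and 0.00803 for Kcnj14.

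Hp (haptoglobin), which binds free haemoglobin and is made by fat cells as well as liver, was an abundant kept gene. It had 4684, 3805 and 4242 CPM at ZT12 and 1329, 1122 and 2425 CPM at ZT3 under shiftwork. Control fat had 3999, 4471 and 3275 CPM at ZT12 and 946, 1515 and 758 CPM at ZT3. Its differences were 1.39 ± 0.34 under shiftwork and 1.87 ± 0.34 in control (adjusted p = 0.0248), with an interaction of -0.48 ± 0.47. In the 9-library fit Hp rose at ZT12 under shiftwork too (1.77, adjusted p = 0.0141). Lrg1, another acute-phase glycoprotein gene, had 548, 387 and 513 CPM at ZT12 and 144, 83.4 and 211 CPM at ZT3 under shiftwork and 371, 448 and 293 CPM at ZT12 and 124, 169.6 and 104 CPM at ZT3 in control. Klf2, a transcription factor of endothelium and leukocytes, and Hspb1, a small heat shock protein gene, were kept, as were Tgfbi and Bmp1, whose products act in the matrix. Sparc, a collagen-binding matrix protein, was kept with 5162, 5374 and 6351 CPM at ZT12 and 4143, 4105 and 3238 CPM at ZT3 under shiftwork and 6246, 6154 and 6387 CPM at ZT12 and 2844, 4008 and 2372 CPM at ZT3 in control. Col12a1, a collagen, was lost, with differences of 0.80 ± 0.36 under shiftwork and 1.90 ± 0.37 in control.

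**Figure D4:**
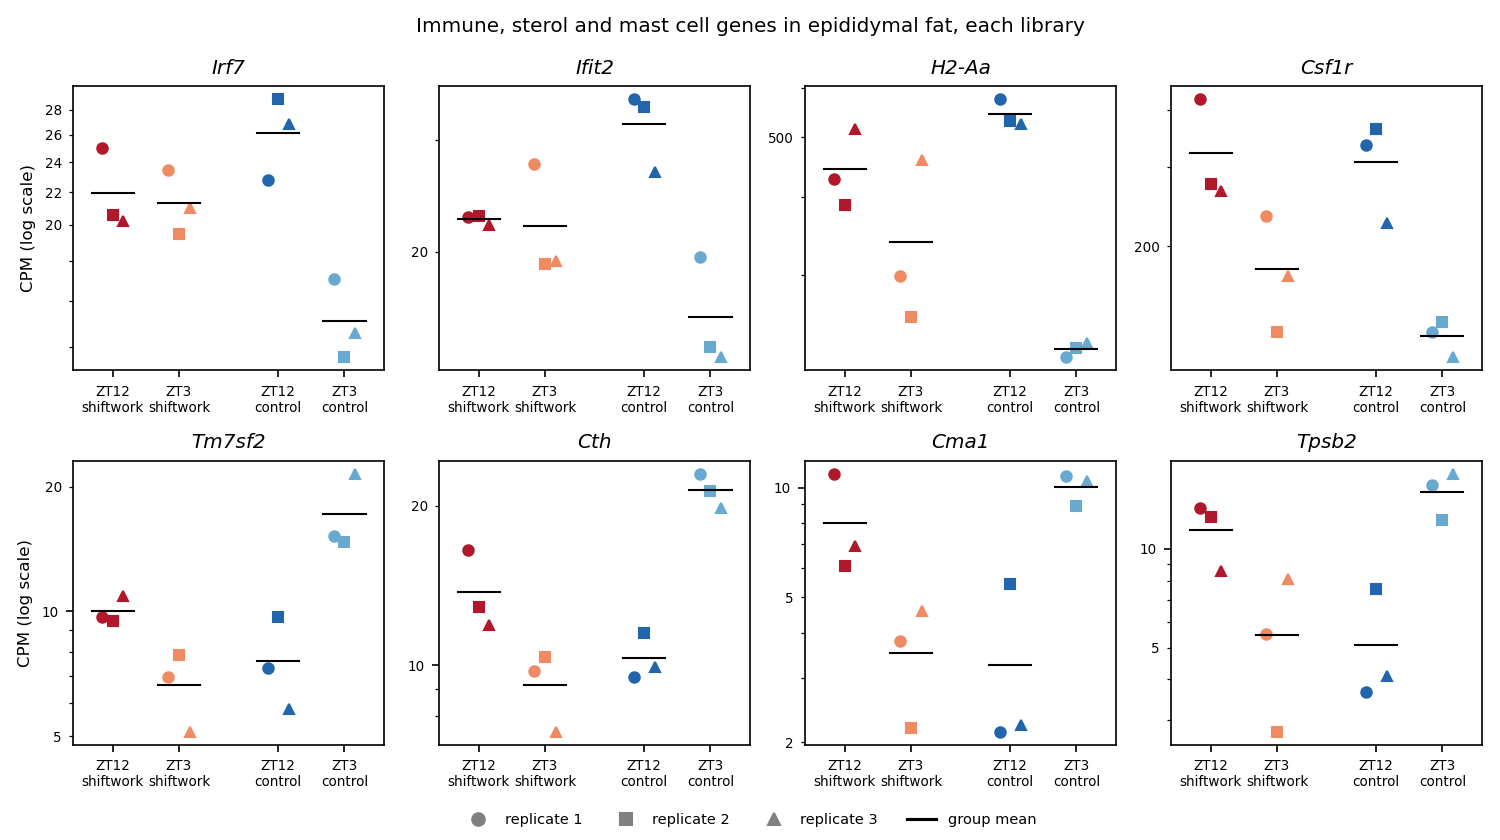
Levels (CPM, log scale) of Irf7, Ifit2, H2-Aa, Csf1r, Tm7sf2, Cth, Cma1 and Tpsb2 in each library, shiftwork to the left of control and ZT12 to the left of ZT3, symbols marking replicates and lines the group means. Irf7 and Ifit2 overlap between times under shiftwork, Csf1r is higher at ZT12 in both schedules, and the lower row shows opposite directions in the 2 schedules.

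Single genes with large control differences that were small under shiftwork are given next. The matrix list itself had a median of 0.46 under shiftwork and 0.34 in control. Fam20c (chr5:138755081-138810063, plus strand), a kinase of secreted proteins, had 122, 184 and 179.8 CPM at ZT12 and 119, 180.5 and 78.9 CPM at ZT3 under shiftwork. Control levels were 260.4, 193 and 293 CPM at ZT12 and 41.1, 48.5 and 35.6 CPM at ZT3, a rise at ZT12 of 2.58 ± 0.31 (adjusted p = 0.0148). Its interaction was -2.22 ± 0.42 (adjusted p = 0.372; DESeq2 adjusted p = 0.000225). Pmepa1, a TGF-beta target that dampens that pathway, had an interaction of -1.97 ± 0.47, with differences of 0.67 ± 0.33 under shiftwork and 2.64 ± 0.35 in control. Peg3 (chr7:6705960-6730419, minus strand), an imprinted zinc finger gene, had 41.2, 72.9 and 97.2 CPM at ZT12 and 87.6, 112 and 107 CPM at ZT3 under shiftwork. Control libraries had 168, 74.5 and 117 CPM at ZT12 and 24.1, 15.6 and 8.59 CPM at ZT3. The ZT3 control libraries were the lowest, the control difference was 2.89 ± 0.45 (adjusted p = 0.0175) and the interaction -3.42 ± 0.60 (adjusted p = 0.372).

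Angptl2 and Tspan4 were called in the 9-library fit. Angptl2, a secreted factor of fat cells linked to inflammation, had 187, 218 and 226 CPM at ZT12 and 301, 286 and 127 CPM at ZT3 under shiftwork. Control fat had 319.5, 274 and 340.5 CPM at ZT12 and 148, 104 and 102 CPM at ZT3. The interaction was -1.58 ± 0.41 with 12 libraries (adjusted p = 0.417) and -2.04 ± 0.21 with 9 (adjusted p = 0.0263). Tspan4, a tetraspanin, had 61.0, 66.5 and 61.0 CPM at ZT12 and 71.7, 63.8 and 38.5 CPM at ZT3 under shiftwork. Control levels were 79.7, 75.7 and 80.1 CPM at ZT12 and 35.1, 35.5 and 34.3 CPM at ZT3, and both times in control were tightly grouped. Its interaction was -1.05 ± 0.26 with 12 libraries (adjusted p = 0.396) and -1.23 ± 0.14 with 9 (adjusted p = 0.0463). Dio2, which activates thyroid hormone in thermogenic fat, was lower at ZT12 in control. It had 2.27, 1.51 and 2.98 CPM at ZT12 and 2.47, 4.52 and 2.36 CPM at ZT3 under shiftwork. Control libraries had 1.38, 2.03 and 0.884 CPM at ZT12 and 6.40, 18.8 and 9.96 CPM at ZT3, with an interaction of 2.56 ± 0.68 (adjusted p = 0.419).

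Immediate early genes, which respond within minutes to stimulation, were mostly higher at ZT3 in control, with 17 of 24 interactions positive, 9 of the positive and 1 of the negative ones at an unadjusted p under 0.05 (4.35% and 5.79% of all genes). The median difference was 0.32 under shiftwork and -0.87 in control, and DESeq2 called 4 of the 24 (1.36% of all genes). The median interaction was 1.31, and 1.48 in the 9-library fit. Egr1, a zinc finger transcription factor, had 30.0, 39.2 and 24.97 CPM at ZT12 and 37.3, 33.1 and 25.2 CPM at ZT3 under shiftwork. Control fat had 33.5, 24.6 and 18.1 CPM at ZT12 and 33.9, 454 and 408 CPM at ZT3. ZT3 control replicates 2 and 3 were more than 10 times the level of every other library, and replicate 1 was not. Summed levels of the list were 932, 1740 and 1760 CPM in the ZT3 control replicates, against 799 to 1150 CPM in the other 9 libraries. Egr1 fell at ZT12 in control (-3.56 ± 0.75, adjusted p = 0.0359), with an interaction of 3.53 ± 0.99 (adjusted p = 0.419), and of 4.02 ± 0.40 in the 9-library fit (adjusted p = 0.0293). Arc, an activity-regulated gene, had 2.10, 1.51 and 1.42 CPM at ZT12 and 0.807, 1.12 and 85.1 CPM at ZT3 under shiftwork, the highest value being that of ZT3 shiftwork replicate 3. Control levels were 2.47, 1.94 and 2.0 CPM at ZT12 and 1.10, 24.5 and 14.1 CPM at ZT3. Its interaction was -1.48 ± 2.10 with 12 libraries and 4.34 ± 0.38 in the 9-library fit (adjusted p = 0.0186), the opposite sign. The 9-library calls of Egr1 and Arc, like those of Angptl2 and Tspan4, rest on replicate 2 as the 1 ZT3 control library. In control 8 of the 24 genes were higher and 16 lower at ZT12. Called were 2 higher and 2 lower (2.93% and 0.766% of all genes). Without overlap 4 were higher and 5 lower in control (19.3% and 13.6% of all genes). Jun, part of the AP-1 factor, was among those called higher. It had 53.8, 68.1 and 57.3 CPM at ZT12 and 61.8, 67.2 and 55.4 CPM at ZT3 under shiftwork and 72.4, 74.8 and 82.2 CPM at ZT12 and 47.3, 39.5 and 41.5 CPM at ZT3 in control, where it rose at ZT12 (0.84 ± 0.12, adjusted p = 0.0168). The interaction of Jun was -0.88 ± 0.17 (adjusted p = 0.372; DESeq2 adjusted p = 0.000855).

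Cholesterol synthesis and uptake genes leaned in opposite directions in the 2 schedules. Their median difference was 0.43 under shiftwork and -0.61 in control, 23 of 24 interactions were positive, 9 of them at an unadjusted p under 0.05 (4.35% of all genes), and 0 passed the edgeR test, with 1 called by DESeq2 (1.36% of all genes). The median interaction was 1.02, and 1.12 in the 9-library fit. Under shiftwork 10 of 24 were higher at ZT12 without overlap, and in control 0 (9.05% and 19.3% of all genes). Lower at ZT12 without overlap were 1 under shiftwork and 5 in control (7.59% and 13.6% of all genes). Tm7sf2 (chr19:6062821-6067867, minus strand), a sterol reductase of the pathway, was the member called in control (adjusted p = 0.0345) and in DESeq2. It had 9.68, 9.49 and 10.9 CPM at ZT12 and 6.93, 7.87 and 5.12 CPM at ZT3 under shiftwork. Control libraries had 7.31, 9.69 and 5.82 CPM at ZT12 and 15.2, 14.7 and 21.5 CPM at ZT3. Neither schedule overlapped between times, with ZT12 high under shiftwork and ZT3 high in control. Its interaction was 1.77 ± 0.34 (adjusted p = 0.372). Fdps, which makes farnesyl diphosphate, had 44.9, 31.3 and 36.3 CPM at ZT12 and 23.1, 29.1 and 15.4 CPM at ZT3 under shiftwork. Control fat had 24.6, 42.6 and 24.6 CPM at ZT12 and 28.2, 67.8 and 75.7 CPM at ZT3, with an interaction of 1.63 ± 0.54 (adjusted p = 0.458). Fdft1, squalene synthase, was the 1 member with a negative interaction (-0.52 ± 0.34). Fatty acid synthesis genes had medians of 0.07 under shiftwork and -0.55 in control, with 18 of 20 interactions positive and 0 of 20 at an unadjusted p under 0.05. In the 9-library fit these medians were -0.24 under shiftwork, with 16 of 20 differences negative, and -0.88 in control. The median interaction was 0.69 with 12 libraries and 0.68 with 9. Summed levels of the list were 82900, 78900 and 34900 CPM in ZT3 shiftwork replicates 1, 2 and 3, so the shiftwork median depended on replicate 3. Fasn, fatty acid synthase, had 8021, 8301 and 7771 CPM at ZT12 and 8530, 12690 and 1709 CPM at ZT3 under shiftwork. Control levels were 6189, 6749 and 5569 CPM at ZT12 and 6066, 23850 and 16430 CPM at ZT3, with ZT3 control replicate 1 below the other 2, and an interaction of 1.40 ± 0.90 (adjusted p = 0.567).

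Of the control differences, 8 were counted as reversed. They were those of Cth, Fam78b, Gfra3, Gprc5a, Rhoj and Tm7sf2, lower at ZT12 in control, and Ulk2 and Wrn, higher at ZT12 in control. Cth (chr3:157894248-157925063, minus strand), which makes cysteine from cystathionine, had the smallest interaction p of these. It had 16.5, 12.9 and 11.9 CPM at ZT12 and 9.73, 10.3 and 7.48 CPM at ZT3 under shiftwork. Control libraries had 9.50, 11.5 and 9.91 CPM at ZT12 and 23.01, 21.4 and 19.8 CPM at ZT3. The times did not overlap in either schedule. The differences were 0.58 ± 0.17 under shiftwork and -1.06 ± 0.17 in control (adjusted p = 0.0193), with an interaction of 1.64 ± 0.25 (adjusted p = 0.372, unadjusted p = 5.54e-05). Rhoj, a small GTPase of endothelium, had 44.4, 48.7 and 49.2 CPM at ZT12 and 35.5, 36.2 and 30.1 CPM at ZT3 under shiftwork. Control fat had 32.9, 37.6 and 38.7 CPM at ZT12 and 54.5, 45.2 and 61.8 CPM at ZT3, again opposite without overlap, with an interaction of 1.05 ± 0.18 (adjusted p = 0.372). Fam78b had an interaction of 1.69 ± 0.34. Ulk2, an autophagy kinase, and Wrn, a DNA helicase, had interactions of -0.78 ± 0.16 and -0.69 ± 0.14. Gprc5a and Gfra3 carried the 2-fold pattern of ZT3 control replicates 1 and 3, as in 15.1, 3.75 and 25.5 CPM for Gprc5a in the ZT3 control libraries, and the part of the vas deferens RNA in them was not tested. Over all genes, 96 (0.634%) were separated in both schedules in opposite directions.

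Mast cell genes leaned in opposite directions too. Of 10 markers, 8 had a positive interaction (median 2.40, and 2.12 in the 9-library fit), 7 in all were at an unadjusted p under 0.05 (10.1% of all genes) and 4 were called by DESeq2 (1.36% of all genes). Cma1, Tpsb2, Cpa3, Mcpt4 and Fcer1a, 5 in all, were separated in opposite directions in the 2 schedules, against 0.634% of all genes. Cma1 (chr14:55941451-55944675, minus strand), mast cell chymase, had 10.9, 6.09 and 6.91 CPM at ZT12 and 3.80, 2.19 and 4.596 CPM at ZT3 under shiftwork. Control levels were 2.14, 5.43 and 2.23 CPM at ZT12 and 10.8, 8.91 and 10.4 CPM at ZT3. Its interaction was 2.79 ± 0.60 with 12 libraries (edgeR adjusted p = 0.372, DESeq2 adjusted p = 0.00206) and 2.88 ± 0.73 with 9 (adjusted p = 0.185). Tpsb2, mast cell tryptase, had 13.3, 12.5 and 8.56 CPM at ZT12 and 5.51, 2.77 and 8.10 CPM at ZT3 under shiftwork. Control libraries had 3.66, 7.51 and 4.09 CPM at ZT12 and 15.6, 12.2 and 16.9 CPM at ZT3, with an interaction of 2.62 ± 0.57 (adjusted p = 0.372). Kit, the stem cell factor receptor that mast cells share with other cells, ran the other way (-1.57 ± 0.48). Summed mast cell markers were 91.3, 85.9 and 72.1 CPM at ZT12 and 63.6, 45.8 and 143 CPM at ZT3 under shiftwork, and 58.6, 64.9 and 54.9 CPM at ZT12 and 173, 64.7 and 132 CPM at ZT3 in control. The highest 3 sums are those of the libraries left out of the 9-library fit, and the part of other tissue in them was not tested.

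**Figure D5:**
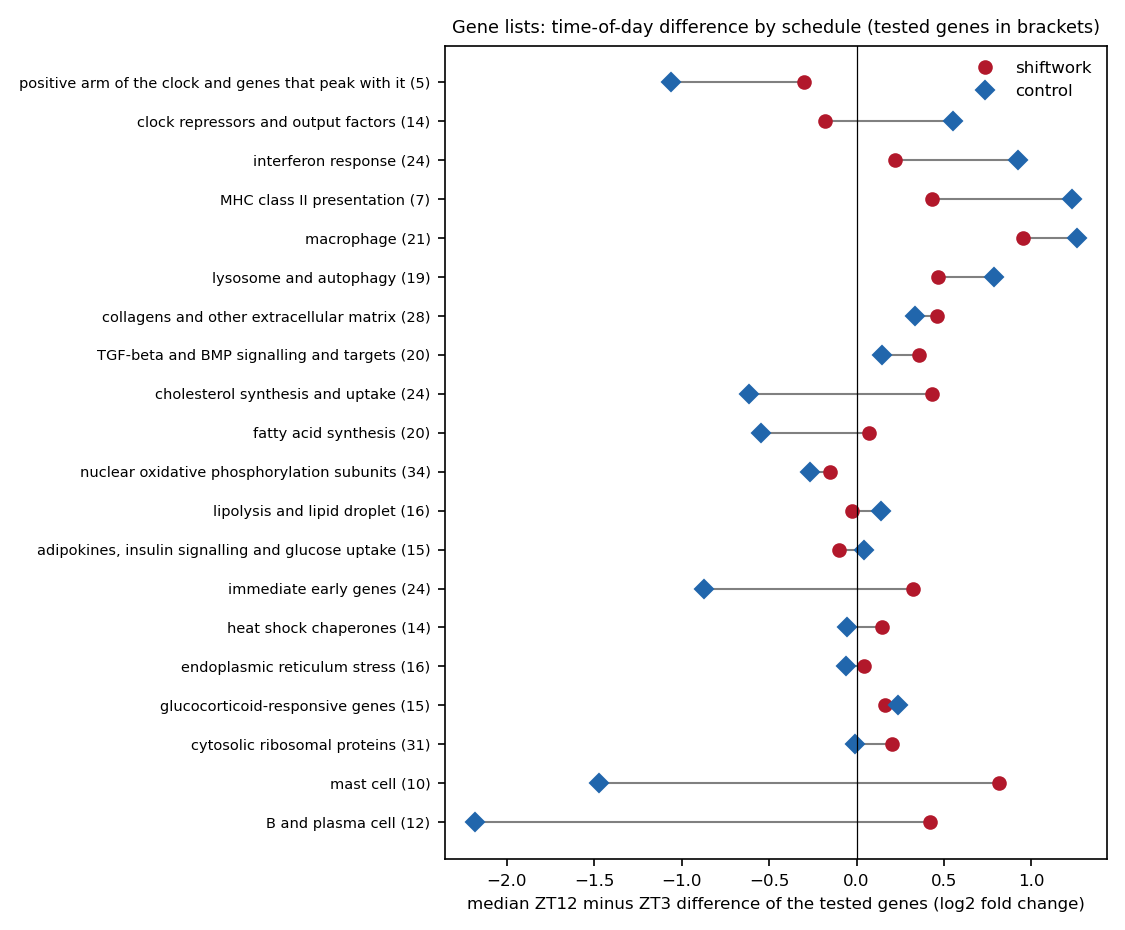
Median ZT12 minus ZT3 difference (log2 fold change) of the tested genes of 20 lists, circles for shiftwork and diamonds for control, with the number of tested genes in brackets. Macrophage medians lie close together at 0.95 and 1.26, and the medians of cholesterol, immediate early, mast cell and B cell genes have opposite signs.

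Differences gained under shiftwork could not be named from edgeR with all 12 libraries, since it called 0 genes for time there. With the same libraries DESeq2 called 287 genes for time under shiftwork, 109 of them gained by the size classes. Voom with quality weights called 285, with 99 gained. In the 9-library fit 75 genes (0.485%) were called for time under shiftwork, 43 higher and 32 lower at ZT12, of which 43 had the same direction and at least 0.5 of the size in control, 29 were smaller and 3 opposite. Those 3 were Pcsk6, Bmp3 and Actg2, and with the genes that follow they are named after their values were seen. Pcsk6, a proprotein convertase, had 77.5, 82.5 and 77.6 CPM at ZT12 and 159, 143 and 36.5 CPM at ZT3 under shiftwork. Control fat had 102, 100.3 and 120.1 CPM at ZT12 and 57.6, 75.1 and 31.5 CPM at ZT3, with time differences in the 9-library fit of -0.95 under shiftwork (adjusted p = 0.0191) and 0.48 in control. The interaction of Pcsk6 was -1.43 ± 0.17 there (adjusted p = 0.053). Bmp3, a growth factor of the BMP family, had 9-library differences of -0.97 under shiftwork and 0.55 in control. With all 12 libraries the control difference of Bmp3 was -0.80, so its opposite direction rested on the 1 ZT3 control library. Actg2, an actin of smooth muscle, had 5.09, 14.2 and 14.8 CPM at ZT12 and 0.665, 0.826 and 71.7 CPM at ZT3 under shiftwork. Control levels were 1.04, 0.378 and 0.558 CPM at ZT12 and 739, 2.78 and 780.2 CPM at ZT3, and its highest values are in the 3 libraries left out of the 9-library fit. Mstn, which encodes myostatin, was among the 29. It had 2.54, 4.01 and 5.06 CPM at ZT12 and 0.665, 0.534 and 2.15 CPM at ZT3 under shiftwork. Control libraries had 5.75, 5.72 and 5.12 CPM at ZT12 and 0.363, 4.53 and 0.342 CPM at ZT3, with 9-library differences of 2.66 under shiftwork (adjusted p = 0.029) and 0.25 in control. Of the ZT3 control libraries only replicate 2 was near the ZT12 control level, and with all 12 libraries the control difference was 1.68. Tph2, the tryptophan hydroxylase best known from neurons, was one of the 43 with a like direction and size in control. It had 81.3, 102 and 79.7 CPM at ZT12 and 7.12, 5.68 and 38.0 CPM at ZT3 under shiftwork. Control fat had 66.96, 123 and 58.0 CPM at ZT12 and 2.08, 22.4 and 3.27 CPM at ZT3, high at ZT12 in both schedules. Eln, elastin, did not overlap between times under shiftwork and overlapped in control. It had 82.4, 116 and 102 CPM at ZT12 and 61.1, 52.1 and 52.3 CPM at ZT3 under shiftwork and 59.6, 62.4 and 62.3 CPM at ZT12 and 79.5, 48.1 and 95.5 CPM at ZT3 in control, with an interaction of 1.14 ± 0.31 (edgeR adjusted p = 0.419, DESeq2 adjusted p = 0.0362) and of 0.49 ± 0.23 without the 3 libraries.

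Genes high in the ZT3 libraries with high vas deferens or spermatid sums gave very large values. The 5 lost genes with the largest control differences (Akr1b7, Crisp1, Slc28a3, Serpina1f and Mybpc1) all had the 2-fold pattern. That pattern does not name a tissue. Skeletal muscle markers too summed to 268, 20.9 and 188 CPM in ZT3 control replicates 1, 2 and 3, against 7.56 to 12.1 CPM in the other groups. Akr1b7, an aldo-keto reductase abundant in mouse vas deferens, had 3.61, 3.16 and 1.47 CPM at ZT12 and 2.80, 1.70 and 1.18 CPM at ZT3 under shiftwork. Control levels were 1.99, 1.28 and 3.30 CPM at ZT12 and 9039, 8.47 and 9325 CPM at ZT3. Its interaction was 11.99 ± 2.41 with 12 libraries and 2.25 ± 0.76 in the 9-library fit (adjusted p = 0.372 and 0.264). Complete separation, in which all 9 library differences of one schedule lay above all 9 of the other, was met by 202 genes (1.33%) with a positive and 368 (2.43%) with a negative interaction. Among the most negative of these, Psma8, a proteasome subunit of male germ cells, had 0.669, 0.708 and 0.757 CPM at ZT12 and 0.807, 0.875 and 35.6 CPM at ZT3 under shiftwork, so that 1 library, ZT3 shiftwork replicate 3, set the value. Without the 3 libraries its interaction was -0.90 ± 0.64, against -5.28 ± 1.75 with all 12.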

How the data were processed

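RNA was extracted with Trizol and a column with DNase, and mRNA libraries were sequenced as single reads of 51 cycles, per the labels' protocols. Per the submitters' processing notes, STAR, HTSeq, DESeq2, limma and edgeR were used with mm10 (GRCm38), with no versions or roles. The authors deposited raw read counts per gene and log2 FPKM values, both as tables of the whole series. The deposited log2 FPKM values have a floor of -3.32 and were used in 1 alternative. Whether counting used strand is not given in the sources used here, so antisense and near-identical genes are uncertain.

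Counts of 24091 genes in the 12 libraries were filtered with filterByExpr (at least 10 reads at the median depth, 15 in all), which left 15141 genes, scaled with TMM and fitted with a group model in edgeR 4.0.16 (quasi-likelihood F-test, R 4.3.3) with 4 contrasts. P-values were Benjamini-Hochberg adjusted over all tested genes, with a threshold of 0.05. Libraries of 20352008 to 72276733 reads give the floors stated with the levels. Alternatives used DESeq2 1.42.0, limma 3.58.1 (voom with quality weights and limma-trend), other filters, a replicate block and left-out libraries. CPM values of single genes and the clock score use TMM-scaled library sizes of the filtered genes, with factors of 0.9124 to 1.147. Summed list levels and counts of markers above 1 CPM are scaled to all reads assigned to genes. Figures were drawn with matplotlib 3.10.9. Scripts were tested on simulated data.

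The genes named are both clock lists, the 10 largest interactions in each direction with complete separation, an unadjusted p under 0.05 and a mean log2 CPM of at least 1, the 2 members of each list with the smallest interaction p, and the 5 largest control differences of each class, 116 in all, with predicted genes and antigen receptor segments left out of the ranked parts. One clock gene counted in its list is not reported here by name. Other genes were named after their values were seen. The members and the 38 gene lists were chosen with earlier results of these data known. Same-numbered replicates are not paired by the labels. No 2 libraries were alike within sampling noise (chi-square per gene of at least 16.6 within groups).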

Additional observations from a re-analysis of the deposited data

Results flagged for a closer look

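For 15 of the 116 named genes the libraries moved in opposite directions under the 2 schedules, with no overlap between ZT12 and ZT3 in either. The difference between schedules did not pass the edgeR interaction test for any of them (0 of 15141 genes, with 1535 at an unadjusted p under 0.05, 189 called by DESeq2). Over all tested genes 96 (0.634%) were opposite in this way. Part of the 116 was chosen on interaction or class values of these same libraries, so the 2 shares cannot be compared like for like.

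Interactions were positive for Cth (1.64), Tm7sf2 (1.77), Rhoj (1.05), Fam78b (1.69), Atf4 (0.53), Cma1 (2.79) and Tpsb2 (2.62). They were positive too for Gprc5a (4.25), Naip1 (5.12) and Cyp3a13 (8.49), of which Cyp3a13 had 52.7 CPM in ZT12 shiftwork replicate 2, the library with high intestinal markers. Interactions were negative for Nr1d2 (-1.12), and for Psma8 (-5.28), Lrrc36 (-4.44), Tmem178b (-2.82) and Lin7a (-2.76). Psma8, Lrrc36, Tmem178b and Lin7a were highest in ZT3 shiftwork replicate 3, the library with high spermatid markers. The part of other tissue in these values was not tested.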

How the results depend on the processing

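The interaction count was 0 with DESeq2 size factors in edgeR, without a filter, with a strict filter, with the replicate block and in limma-trend on log2 FPKM. Counts follow as interaction, time under shiftwork, time in control and mean time, then kept, lost, reversed and gained, then the percentage of mean-called genes smaller under shiftwork. DESeq2 gave 189, 287, 2168 and 2252, then 682, 1434, 52 and 109, then 74.8%. Voom with quality weights gave 2014, 285, 5085 and 3599, then 1010, 3579, 496 and 99, then 77.6%. Leaving out ZT3 shiftwork replicate 3 and ZT3 control replicates 1 and 3 gave 7, 75, 619 and 1791, then 186, 416, 17 and 32, then 76.3%. With no filter 320 control genes were called (130 kept, 189 lost, 1 reversed). Reversed genes were 3 with DESeq2 size factors and 4 in limma-trend. A class limit of 0.25 gave 353 kept, 186 lost and 20 reversed. Leaving out single libraries gave 0 to 186 interactions, 0 to 0 for time under shiftwork, 1 to 2744 in control, 138 to 1656 for the mean, 0 to 708 kept, 1 to 1764 lost, 0 to 272 reversed, 0 to 0 gained and 67 to 92.8%. The causes were not tested.

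The replicate numbers do not pair the samples. Correlations of same-numbered deviations ran from -0.313 to 0.238, 3 of 18 were above 0.1, and 2 of 12 libraries correlated best with their own number. With the replicate block 298 control genes and 462 mean-called genes were called (120 kept, 177 lost, 1 reversed).

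Of 2301 values for single named genes under an alternative, 2162 stayed on their side of the threshold with their direction, 112 passed only in the alternative, 0 were lost and 27 had the opposite sign. With all 12 libraries edgeR called 0 interactions, so a call could not be lost. The 2162 are values of the same direction that were not called in the alternative either. Opposite signs without the 3 libraries were those of Cry1 (0.47), Nr1d1 (-0.36), Usp2 (0.10), Fads1 (-0.00961), Cpt1b (0.52), Bub1 (0.45), Cst8 (7.31), Odf2 (0.18), Hspa1l (3.44), Ccl19 (-0.47), Tnnc2 (-0.23), Slc4a1 (-0.33), Hba-a2 (-0.19), Kcnj14 (0.00803) and Mrc2 (0.47). With voom it was that of Hspa1l (1.29). Leaving out single libraries gave -4.27 to 0.52 for Bub1, -3.23 to 0.056 for Cpt1b, -0.72 to 0.0205 for Cry1, -7.35 to 6.11 for Cst8, -0.14 to 1.25 for Hba-a2, -6.05 to 2.43 for Hspa1l, -0.10 to 0.57 for Nr1d1, -3.65 to 0.17 for Odf2, -0.25 to 1.45 for Slc4a1 and -3.92 to 0.34 for Ttk. With 3 libraries a group, genes near the floor of 3 reads are not resolved.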

Other observations

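Of 12 B cell and plasma cell markers, 0 under shiftwork and 11 in control were lower at ZT12 without overlap, against 7.59% of all genes under shiftwork and 13.6% in control. The median difference was 0.42 under shiftwork and -2.18 in control, 10 of 12 interactions were positive, 9 of 12 were at an unadjusted p under 0.05, and 0 passed the edgeR test. Over all genes 10.1% were at an unadjusted p under 0.05. With all 12 libraries lymph node stroma markers moved with these genes, 4 of 4 tested interactions being positive (median 2.53). Their medians were 1.41 under shiftwork and -1.0 in control. Without the 3 libraries 2 interactions were positive and 2 negative (median 0.29). Their control median was then 0.89, against -1.67 for the B cell list. Sums over the 6 lymph node stroma markers in the deposited counts were 38.7, 11.5 and 4.86 CPM at ZT12 and 1.85, 2.04 and 10.9 CPM at ZT3 under shiftwork. In control these sums were 5.24, 3.67 and 4.40 CPM at ZT12 and 9.51, 5.73 and 14.7 CPM at ZT3. Their part in the B cell values was not tested. The median interaction of the B cell list was 2.65, and 3.47 without ZT3 shiftwork replicate 3 and ZT3 control replicates 1 and 3. Ms4a1, which encodes the B cell surface protein CD20, had 5.53, 4.72 and 2.88 CPM at ZT12 and 1.57, 0.534 and 8.10 CPM at ZT3 under shiftwork. In control it had 0.997, 0.756 and 1.07 CPM at ZT12 and 6.35, 8.91 and 10.01 CPM at ZT3. All ZT3 control libraries and ZT3 shiftwork replicate 3 were high. The interaction of Ms4a1 was 3.52 ± 1.09 (edgeR adjusted p = 0.443), and without ZT3 shiftwork replicate 3 it was called, at 5.22 (adjusted p = 0.0332). Cd79a, part of the B cell receptor, had 3.08, 3.82 and 1.80 CPM at ZT12 and 0.712, 0.437 and 4.38 CPM at ZT3 under shiftwork and 0.855, 0.614 and 0.977 CPM at ZT12 and 4.24, 4.87 and 7.28 CPM at ZT3 in control. Its interaction was 3.38 ± 1.05, and 5.06 without ZT3 shiftwork replicate 3 (adjusted p = 0.0321). Both calls come from leaving out the ZT3 shiftwork library in which Ms4a1 and Cd79a were highest. Neither gene was among those called in the 9-library fit, which leaves that library out too. Fcer2a, the low-affinity IgE receptor of B cells, had an interaction of 3.37 ± 0.87 (adjusted p = 0.417).

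Pdha1, Dld and Dbt, named after their values were seen, were called for time under shiftwork without the 3 libraries (0.485% of all genes were). Pdha1, of the pyruvate dehydrogenase complex, had 321, 300.3 and 308 CPM at ZT12 and 500.2, 564 and 166 CPM at ZT3 under shiftwork. In control it had 335, 309 and 339 CPM at ZT12 and 342, 502 and 470.3 CPM at ZT3. Its differences in that fit were -0.80 under shiftwork (adjusted p = 0.0205) and -0.66 in control, while with all 12 libraries they were -0.40 and -0.42 and neither passed. Dld, a subunit that this complex shares with related ones, and Dbt, of branched-chain amino acid breakdown, fell at ZT12 under shiftwork in the same fit, by 0.58 and 0.67. Gpd2, the mitochondrial glycerol phosphate dehydrogenase, had 60.2, 66.8 and 55.2 CPM at ZT12 and 111, 139 and 195 CPM at ZT3 under shiftwork. In control it had 70.7, 60.8 and 60.3 CPM at ZT12 and 94.5, 121 and 122 CPM at ZT3, so that ZT12 was lower without overlap in both schedules. Gpd2 fell at ZT12 in the test of the mean difference with all 12 libraries (-1.05, adjusted p = 0.0103). The oxidative phosphorylation list as a whole had medians of -0.15 under shiftwork and -0.27 in control, with all 12 libraries, and 0 of 34 called in the test of the mean (4.94% of all genes were called). Without the 3 libraries its medians were -0.37 under shiftwork and -0.50 in control. The median of the mean difference was -0.44 there, against -0.21 with all 12 libraries. It was negative in 34 of 34 genes there and in 33 of 34 with all 12 libraries, against 8399 of all 15141 tested genes. The count of 0 called is therefore not an absence of a difference. Saa3, an acute-phase protein of fat and macrophages, had 61.9, 39.0 and 20.2 CPM at ZT12 and 4.08, 5.30 and 13.7 CPM at ZT3 under shiftwork and 27.9, 65.0 and 34.0 CPM at ZT12 and 10.04, 8.33 and 4.101 CPM at ZT3 in control, with a rise at ZT12 in the test of the mean (2.44, adjusted p = 0.015) and an interaction of -0.10 ± 0.80.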
